A study of Mus musculus with 9 samples.

Results

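The 5 Ms4a genes described here, Ms4a4c, Ms4a6b, Ms4a6c, Ms4a6d and Ms4a7, were chosen by gene symbol from the 23284 symbols listed for every sample. All 5 were found, and 11 further symbols beginning with Ms4a were listed beside them. RNA-sequencing had been performed on myeloid-derived suppressor cells (MDSCs), immature myeloid cells that restrain immune responses, purified from the spleens of mice carrying spindle cell tumours (SCTs). The 9 samples formed 3 groups of 3: polymorphonuclear, neutrophil-like PMN-MDSCs of wild-type (WT) C57BL/6J mice, monocytic Mo-MDSCs of WT C57BL/6J mice, and Mo-MDSCs of C57BL/6 mice labelled as double knockouts of p16 and p21 (p16/p21-DKO), 2 inhibitors of cyclin-dependent kinases. All mice had been injected under the skin with SCT cells, a line derived from a chemically induced tumour of a p16 knockout mouse, so the tumour cells came from a p16-deficient background in every group. The labels give an age of 3 weeks, which in the study's methods is the time from injection to collection. The descriptions of DKO replicates 2 and 3 name the second gene p22 and p23, while their genotype label names p21. The deletion is carried by the whole mouse, not by myeloid cells alone, and PMN-MDSCs of DKO mice were not analysed here. PMN-MDSCs had been taken as Ly6G+ cells and Mo-MDSCs as Ly6G-Gr-1+ cells with a magnetic isolation kit. Nothing states whether a sample is 1 mouse or a pool, so the p-values measure the spread between these samples only.

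Genes of the Ms4a family (membrane-spanning 4-domains, subfamily A) encode small proteins that cross the plasma membrane repeatedly and have both ends inside the cell. The founding members are CD20 on B cells, encoded by Ms4a1, and the beta chain of the high-affinity IgE receptor of mast cells and basophils, encoded by Ms4a2. Several members are found in monocytes and macrophages, where they associate with other receptors and modulate their signals, and most have no known ligand.

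Expression was given as FPKM, by definition fragment counts scaled to transcript length and to mapped fragments, so that levels of different genes can be compared. How the software scaled the libraries is not given in the sources used here. Read depth relative to replicate 1 of WT Mo-MDSCs, estimated from the steps between low FPKM values, ranged from 0.809 to 1.31, and 11299 to 11418 genes reached 1 FPKM per sample. Of the targeted genes, Cdkn1a (p21) had 8.18, 6.46 and 8.04 FPKM in WT Mo-MDSCs and 5.55, 8.52 and 6.00 in Mo-MDSCs labelled DKO, and Cdkn2a (p16) was at or below 1.47 FPKM in all 9 samples. Cdkn1a was thus not lower beyond the spread (adjusted p = 0.637, limma), and a gene-level value does not check the labels where the deleted exons are not given. Most neutrophil and monocyte markers separated the subsets as labelled. The neutrophil receptor Cxcr2 lay between 590.4 and 875 FPKM in PMN-MDSCs against 5.37 to 18.6 in the 6 Mo-MDSC samples. The monocyte receptor Ccr2 lay between 2.36 and 2.51 against 159.9 to 362. The neutrophil genes Ngp, Camp and Ltf overlapped between the WT subsets, with Ngp at 2699 to 11179 FPKM in PMN-MDSCs and 2349 to 7617 in WT Mo-MDSCs. The monocyte gene Csf1r overlapped as well, at 674 to 841 and 750 to 853. Genes of other spleen cells were present in every group. The summed level of 8 macrophage genes was 7450.1 to 8399 FPKM in PMN-MDSCs, 4726 to 5706 in WT and 5941 to 8528 in DKO Mo-MDSCs, and that of 4 B-cell genes was 1247 to 1346, 885 to 952 and 941 to 1171. No gene of either list was at 0 in all samples, and the markers Ly6g, Adgre1 and Ighm were not analysed here. In bulk samples, fewer cells of a type and less RNA per cell cannot be told apart.

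The family lies in 1 cluster on mouse chromosome 19 (GRCm38, GENCODE M21). The 5 genes span chr19:11321039-11604849, 283.811 kb, in the order Ms4a7, Ms4a4c, Ms4a6c, Ms4a6b and Ms4a6d. Ms4a4c, Ms4a6c and Ms4a6b are on the plus strand, and the outer genes Ms4a7 and Ms4a6d on the minus strand. A non-coding transcript of the opposite strand, BE692007, overlaps Ms4a6c, and 53.4% of the 75-base stretches of the Ms4a6c transcript also occur in it in reverse. Whether the counting used strand is not given in the sources used here, so reads of Ms4a6c and of BE692007 may not have been told apart. On the coding strand the 5 genes share few stretches with other genes at the 75-base length of the reads. Other genes share 3.94% of the stretches of Ms4a4c (with Ms4a4b), 3.23% of Ms4a6c, 1.11% of Ms4a6b, 0.521% of Ms4a6d and none of Ms4a7.

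Promoter sequences of RefSeq (GRCm38.p6) were matched for 4 of the 5 genes. Ms4a6d had no match. The 250 bases before the annotated start are shown for the genes that moved together between subsets, Ms4a6c, Ms4a6b and Ms4a4c, and for Ms4a7, which moved the other way. Capitals mark the motifs searched on both strands: GAAANNGAA, the core of an interferon-stimulated response element, and GAGGAA, the core bound by the myeloid factor PU.1. The windows are chr19:11469118-11469367 (plus strand) for Ms4a6c, chr19:11518309-11518558 (plus strand) for Ms4a6b, chr19:11407411-11407660 (plus strand) for Ms4a4c and chr19:11336147-11336396 (minus strand) for Ms4a7.
Ms4a6c: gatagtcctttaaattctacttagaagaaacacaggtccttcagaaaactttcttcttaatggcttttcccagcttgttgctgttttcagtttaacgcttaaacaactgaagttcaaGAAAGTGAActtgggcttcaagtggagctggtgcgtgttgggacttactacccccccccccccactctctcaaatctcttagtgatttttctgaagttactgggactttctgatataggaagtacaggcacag
Ms4a6b: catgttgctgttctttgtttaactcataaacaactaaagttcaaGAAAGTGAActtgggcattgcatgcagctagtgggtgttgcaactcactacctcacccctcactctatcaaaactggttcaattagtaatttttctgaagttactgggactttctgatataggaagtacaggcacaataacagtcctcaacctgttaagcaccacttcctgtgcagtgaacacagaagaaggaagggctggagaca
Ms4a4c: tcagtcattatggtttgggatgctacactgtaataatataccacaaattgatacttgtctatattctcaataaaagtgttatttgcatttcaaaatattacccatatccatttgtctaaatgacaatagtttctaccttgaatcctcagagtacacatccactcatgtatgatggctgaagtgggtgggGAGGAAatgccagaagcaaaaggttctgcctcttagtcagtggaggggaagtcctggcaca
Ms4a7: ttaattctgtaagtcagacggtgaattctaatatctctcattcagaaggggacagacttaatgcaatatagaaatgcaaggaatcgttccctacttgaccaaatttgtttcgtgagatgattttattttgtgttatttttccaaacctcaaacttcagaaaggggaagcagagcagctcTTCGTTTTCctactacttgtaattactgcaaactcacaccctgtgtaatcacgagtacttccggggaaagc
Ms4a6c and Ms4a6b shared an identical run of 48 bases, which begins 49 bases before the start of Ms4a6c and 118 bases before that of Ms4a6b. Upstream of it, both windows hold GAAAGTGAA, at -133 in Ms4a6c and -206 in Ms4a6b. No other pair of genes shared a run of more than 9 bases. Ms4a7 holds the element on the opposite strand at -71, and a second RefSeq start of the gene (window chr19:11334646-11334945) holds GAAAAGGAA at -148. Ms4a4c holds GAGGAA at -61, and Ms4a7 holds it at 44 bases after its start, beyond the bases shown but within the 300-base RefSeq window that was searched. Of 32851 mouse promoter windows of 300 bases, 8.56% contain GAAANNGAA and 28.3% contain GAGGAA. TTGCNNAA, bound by C/EBP factors, and TATAAA, a core promoter element, are found in 10.8% and 13.6% of windows and matched none of those of these genes. A match is a description of the letters and was not tested as a binding site.

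Ms4a6c had the highest level of the 5 genes in all 9 samples, and the order below it differed between the subsets. In PMN-MDSCs, Ms4a7 came next, followed by Ms4a4c, Ms4a6d and Ms4a6b. This order held within every sample, although the ranges of Ms4a6d and Ms4a6b overlapped across samples. In WT Mo-MDSCs, Ms4a6b, Ms4a4c and Ms4a6d followed Ms4a6c and Ms4a7 was lowest, again within every sample. The DKO means had the same order, but within samples it was not constant. There the log2 difference ranged from -0.08 to 0.19 for Ms4a6b over Ms4a4c and from -0.02 to 0.42 for Ms4a4c over Ms4a6d. Among all genes, Ms4a6c ranked 1674th by mean FPKM in PMN-MDSCs, 208th in WT Mo-MDSCs and 277th in DKO Mo-MDSCs. The mean of Ms4a6c was 60.7 ± 6.85 FPKM (SD, n = 3) in PMN-MDSCs, 386 ± 52.2 in WT and 256 ± 36.4 in DKO Mo-MDSCs. Ms4a7, by contrast, had 35.6 ± 3.57, 25.9 ± 4.07 and 19.02 ± 1.06 FPKM in the same groups. The sum over the 5 genes was 142 to 164 FPKM in PMN-MDSC samples, 673 to 904 in WT Mo-MDSC samples and 449 to 592 in DKO Mo-MDSC samples.

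**Figure D1:**
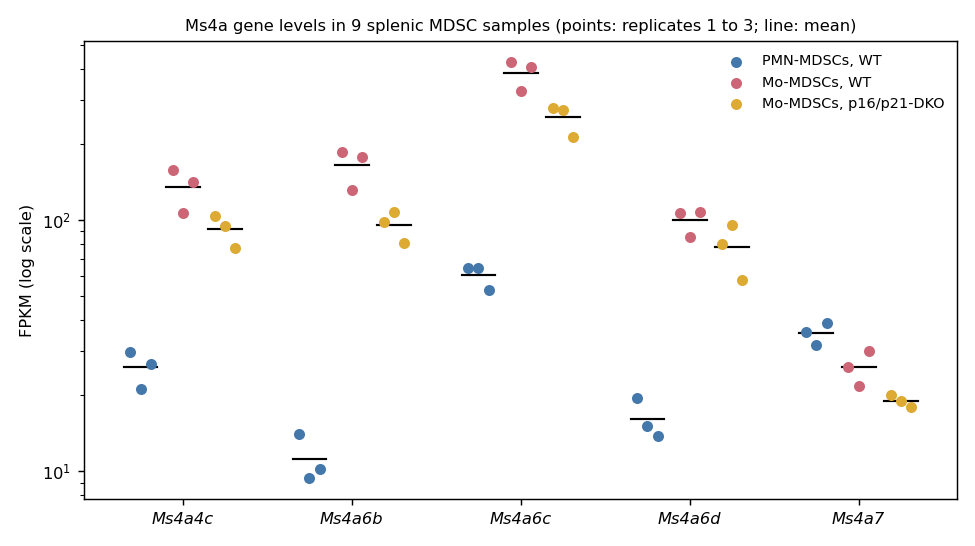
FPKM of the 5 Ms4a genes on a log axis in the 3 groups, with a point per sample and a line at the mean of 3. Ms4a4c, Ms4a6b, Ms4a6c and Ms4a6d sit higher in Mo-MDSCs than in PMN-MDSCs, Ms4a7 sits lower, and the DKO samples lie below the WT Mo-MDSC samples for every gene except Ms4a6d, whose groups overlap.

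The share of each gene in this sum was steady within groups. Ms4a6c made up 37.0% to 45.4% in PMN-MDSCs and 46.5% to 48.6% in the 6 Mo-MDSC samples. Ms4a7 made up 21.9%, 22.4% and 27.4% in PMN-MDSCs and no more than 4.00% in any Mo-MDSC sample. Ms4a6b moved in the opposite direction, from 6.58% to 8.61% in PMN-MDSCs to 19.5% to 20.7% in WT Mo-MDSCs. In DKO Mo-MDSCs its share was 16.9% to 18.1%, below all 3 WT samples, while that of Ms4a6d was 12.9% to 16.2% against 11.8% to 12.7%, above all 3. The shares of Ms4a4c and Ms4a6c overlapped between the genotypes. These shares were described and not tested.

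**Figure D2:**
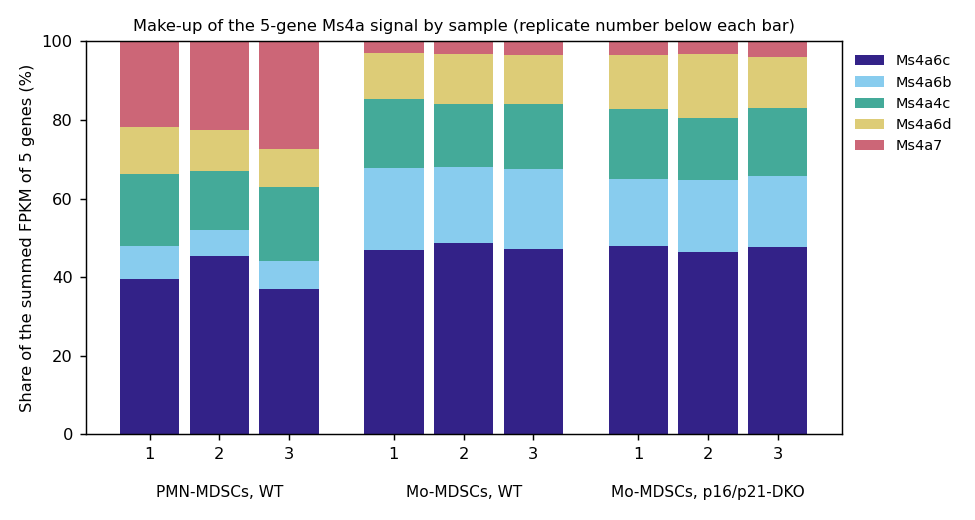
Share of each gene in the summed FPKM of the 5 Ms4a genes, 1 bar per sample, in percent. Ms4a7 takes 21.9% to 27.4% of the sum in PMN-MDSCs and 2.87% to 4.00% in Mo-MDSCs, and Ms4a6b takes 6.58% to 8.61% and 16.9% to 20.7%.

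The first comparison, of the monocytic with the polymorphonuclear subset of WT mice, asks which genes mark the former. Of the 5 genes, Ms4a6b, Ms4a6c, Ms4a6d and Ms4a4c were higher in Mo-MDSCs, by 5.19-fold to 14.7-fold, and Ms4a7 was lower. Over all 11491 genes tested, 18.5% were called higher and 20.6% lower at the same threshold, an adjusted p below 0.05 (limma on log2(FPKM + 0.1), Benjamini-Hochberg over all genes tested). For 4 of the 5 genes all 3 Mo-MDSC samples lay above all 3 PMN-MDSC samples, which was so for 3005 of the 11491 genes tested. The reverse, seen for Ms4a7, held for 3029 of them. The median log2 fold change was 2.63 for the 5 genes and 0.01 for all genes. The members were named with earlier results of these data known, so the count describes them and is not evidence for the family as a whole.

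Ms4a6b, a member also found in lymphocytes, was at 14.1, 9.37 and 10.2 FPKM in PMN-MDSC replicates 1 to 3, and at 187, 131 and 178 in WT Mo-MDSCs. The groups lay far apart, and Ms4a6b went from the lowest mean of the 5 genes to the second highest. The log2 fold change was 3.88 (SE 0.190, adjusted p = 1.96e-05, limma), the largest of the 5. Ms4a6c, a transcript known from mouse monocytes, was at 64.6, 64.6 and 52.7 FPKM in PMN-MDSCs and at 425, 327 and 407 in WT Mo-MDSCs. These groups did not overlap either, and even the PMN-MDSC level of Ms4a6c exceeded the Mo-MDSC level of Ms4a7. Its log2 fold change was 2.67 (SE 0.131, adjusted p = 1.96e-05, limma).

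Ms4a6d, whose protein has been described as a partner of the macrophage receptor VSIG4, was at 19.5, 15.2 and 13.7 FPKM in PMN-MDSCs and 107, 85.6 and 108 in WT Mo-MDSCs, again without overlap. The log2 fold change was 2.63 (SE 0.152, adjusted p = 3.35e-05, limma). Ms4a4c, a little-studied member of the Ms4a4 branch, was at 29.8, 21.3 and 26.8 FPKM in PMN-MDSCs and 159, 107 and 142 in WT Mo-MDSCs. Replicate 2 was the lowest of its group in both subsets, and the groups stood apart. The log2 fold change was 2.38 (SE 0.177, adjusted p = 9.32e-05, limma). Over 15 alternative settings these 4 genes stayed higher, with adjusted p-values of at most 0.00371, the highest being for replicates 2 and 3 only, the later of 2 series of library numbers on the labels. The exact two-sided permutation test of each gene gave p = 0.1, the smallest value that 3 against 3 samples allow.

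Ms4a7, a gene of mature macrophages, was at 35.8, 31.9 and 39.0 FPKM in PMN-MDSCs and at 25.9, 21.9 and 30.0 in WT Mo-MDSCs. All 3 Mo-MDSC samples lay below all 3 PMN-MDSC samples, as for 3029 of the 11491 genes tested. Each was thus also below the PMN-MDSC sample of its own replicate number. Its log2 fold change was -0.46 (SE 0.133, adjusted p = 0.0305, limma). Fitted with the replicate numbers as pairs it was the same, with a smaller error (SE 0.0537, adjusted p = 0.000841, limma). In the fits without pairs the call depended on scaling, and the pairs were not combined with another scaling. Dividing each library by its summed FPKM moved the median of all genes to 0.45 and the numbers called from 2121 higher and 2371 lower to 5821 and 950. It put Ms4a7 at -0.02 (adjusted p = 0.893, limma), so the call was lost. That value is -0.47 relative to the median, a distance that this scaling leaves nearly unchanged for every gene by construction. The call was also lost with quantile normalization (adjusted p = 0.0580, limma) and with replicates 2 and 3 only (adjusted p = 0.149). Leaving out PMN-MDSC replicate 1 or 3, or WT Mo-MDSC replicate 1 or 2, lost it too (adjusted p between 0.0724 and 0.0960). Genes of several cell types were also lower in Mo-MDSCs in this comparison, in which 20.6% of all genes tested were called lower. Called lower were 6 of 8 macrophage genes (C1qa, a complement subunit, -0.65, adjusted p = 0.00493, limma), 7 of 10 neutrophil genes and 2 of 4 B-cell genes. No gene of these lists was called higher. The part of these cells in the Ms4a7 difference was not tested.

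**Figure D3:**
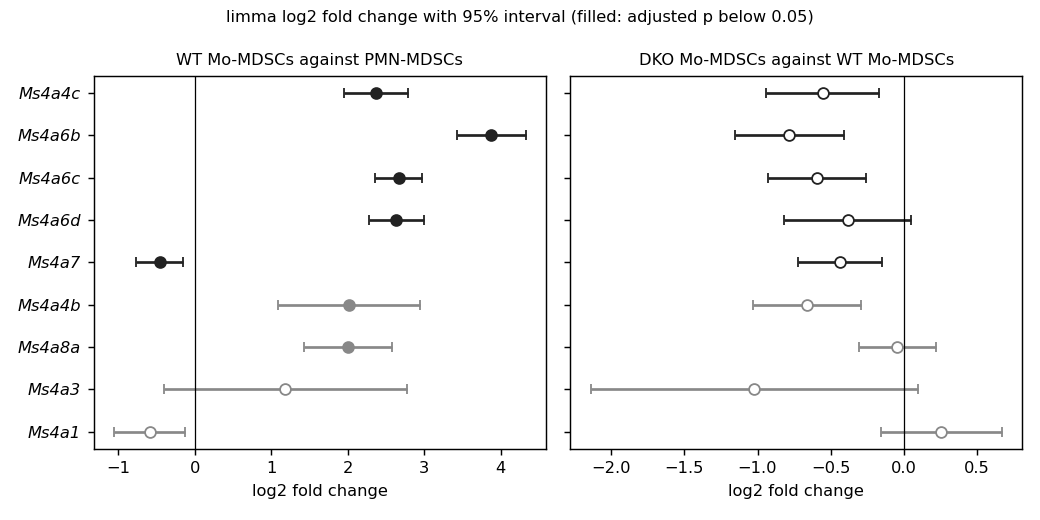
limma log2 fold changes of the 9 Ms4a genes tested, with 95% intervals, for WT Mo-MDSCs against PMN-MDSCs (left) and DKO against WT Mo-MDSCs (right). Filled points passed an adjusted p below 0.05, black marks the 5 genes described and grey the other 4. On the right no gene passed, and the intervals of Ms4a4c, Ms4a6b, Ms4a6c, Ms4a7 and Ms4a4b lie below 0.

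The second comparison, of DKO with WT Mo-MDSCs, asks which genes differ when p16 and p21 are deleted. All 5 genes had lower means in the samples labelled DKO, at 0.581 to 0.767 of the WT level by the fitted fold change. None of the 5 passed an adjusted p below 0.05, a threshold that 0.0873% of 11451 genes passed as lower (10 genes, with 1719 genes in either direction at an unadjusted p below 0.05). A looser rule took the cut-offs given by the study for genes lower in DKO cells and applied them here to the fitted fold (less than 0.75) and to the p before adjustment (below 0.05). By it, 4 of 5 were lower against 4.43% of all genes tested. For these same 4 genes, Ms4a4c, Ms4a6b, Ms4a6c and Ms4a7, all 3 DKO samples lay below all 3 WT samples, which was so for 12.9% of all genes. The median log2 fold change was -0.55 for the 5 genes and -0.02 for all genes tested.

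Ms4a6b showed the largest difference. Its level was 187, 131 and 178 FPKM in WT and 98.3, 107 and 81.2 in DKO Mo-MDSCs. The highest DKO sample was below the lowest WT sample. The log2 fold change was -0.78 (95% interval -1.16 to -0.41, unadjusted p = 0.00135 and adjusted p = 0.132, limma). For Ms4a6c the levels were 425, 327 and 407 FPKM in WT and 279, 275 and 214 in DKO Mo-MDSCs, with no overlap. The difference was -0.59 (interval -0.93 to -0.26, adjusted p = 0.172, limma), and every DKO sample remained above every PMN-MDSC sample.

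Ms4a4c fell short of the threshold in the same way. It had 159, 107 and 142 FPKM in WT and 104, 94.2 and 77.4 in DKO samples, so that the groups were separated by 107 against 104 only. The log2 fold change was -0.55 (interval -0.94 to -0.17, adjusted p = 0.219, limma). Ms4a7 had 25.9, 21.9 and 30.0 FPKM in WT and 20.1, 19.02 and 18.0 in DKO samples. The 3 DKO values were the lowest of the 9, and the spread among them was the smallest of any group. Its log2 fold change was -0.44 (interval -0.72 to -0.15, adjusted p = 0.202, limma).

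Ms4a6d was the exception. Its levels were 107, 85.6 and 108 FPKM in WT and 80.4, 95.8 and 57.7 in DKO samples. DKO replicate 2 lay inside the WT range and DKO replicate 3 far below it. The difference was -0.38 with an interval from -0.82 to 0.05 (adjusted p = 0.375, limma), which includes both no change and a fall as large as that of Ms4a6b. Single samples moved this value, to -0.18 without DKO replicate 3 (adjusted p = 0.726, limma) and to -0.55 without DKO replicate 2 (adjusted p = 0.189). The exact two-sided permutation test gave p = 0.1 for the 4 genes without overlap, again its smallest value, and p = 0.2 for Ms4a6d. Under all 15 alternatives all 5 genes kept a negative log2 fold change and none passed the threshold. The lowest adjusted p was 0.0562, for Ms4a6b without WT Mo-MDSC replicate 2. With replicates 2 and 3 only, the log2 fold changes of Ms4a6b, Ms4a6c, Ms4a4c, Ms4a7 and Ms4a6d were -0.71, -0.59, -0.53, -0.47 and -0.37. Scaling to the summed FPKM shifted the median of all genes to 0.14 and left Ms4a6b and Ms4a6c past the looser rule, whereas quantile normalization left Ms4a4c and Ms4a6b. No member changed direction under either. Without WT replicate 3 or DKO replicate 3, Ms4a7 no longer passed the looser rule, and without WT replicate 2 or DKO replicate 2 all 5 genes passed it.

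Of the 11 other Ms4a genes listed, 4 reached the level needed for testing. Among these 4, Ms4a4b and Ms4a8a were called higher in the monocytic subset, against 18.5% of all genes tested. Ms4a4b, a T-cell and monocyte member that shares sequence with Ms4a4c, was at 1.30 to 4.56 FPKM in PMN-MDSCs and 9.34 to 11.9 in WT Mo-MDSCs. The log2 fold change was 2.01 (adjusted p = 0.00649, limma). In DKO Mo-MDSCs it had 7.90, 6.64 and 5.37 FPKM, all below WT, as for 12.9% of all genes tested. The difference was -0.66 (adjusted p = 0.169, limma). Ms4a8a, known from alternatively activated macrophages, was at 7.21 to 15.1 FPKM in PMN-MDSCs and 39.2 to 45.4 in WT Mo-MDSCs (log2 fold change 2.00, adjusted p = 0.000822, limma). In DKO Mo-MDSCs Ms4a8a was at 35.4, 45.9 and 41.6 FPKM, across the WT range, with a difference of -0.04 (interval -0.31 to 0.22), whose sign changed with the scaling, quantile normalization and replicates used.

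Ms4a1, the B-cell gene of CD20, was at 187 to 289 FPKM in the PMN-MDSC samples, at 136 to 196 in the WT and at 151 to 208 in the DKO Mo-MDSC samples. In PMN-MDSCs it was above all 5 genes, and in WT Mo-MDSCs its range overlapped that of Ms4a6b. Its log2 fold change between subsets was -0.59 (adjusted p = 0.0517, limma). Blocking on replicate gave an adjusted p of 0.000644, whereas scaling to summed FPKM or quantile normalization left -0.15. The B-cell genes Cd79a (-0.65) and Cd79b (-0.62) were called lower in WT Mo-MDSCs in the same comparison. Their part in the Ms4a1 level was not tested. Ms4a3, a marker of granulocyte and monocyte progenitors, was at 5.10, 2.13 and 9.54 FPKM in PMN-MDSC replicates 1 to 3, at 12.2, 4.71 and 22.2 in WT and at 5.05, 6.30 and 4.64 in DKO Mo-MDSCs. Replicate 3 was the highest and replicate 2 the lowest in both WT groups, and the groups overlapped. Its log2 fold change was 1.18 (adjusted p = 0.204, limma) between subsets and -1.02 (adjusted p = 0.366) between genotypes. Under the replicate block the first had an adjusted p of 6.62e-05.

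The remaining 7 genes were near or at 0. Ms4a2, of mast cells and basophils, was listed at 0 in the 3 PMN-MDSC samples and amounted to 9 reads over the 3 WT and 3 reads over the 3 DKO Mo-MDSC samples, as judged from the size of FPKM steps. The 4 marker genes of those cells summed to no more than 1.29 FPKM in any sample. Ms4a4d and Ms4a15 came to 24 and 7 reads over all 9 samples, and Ms4a18 was above 0 in 1 sample. Ms4a5, Ms4a10 and Ms4a13 were listed at 0 throughout, and Ms4a4a, the neighbour of Ms4a4c, was not analysed here. Family members listed under older names, 1700025F22Rik and 1700017D01Rik, are not among these genes. The former was at 0 throughout, and the latter was above 0 in the DKO samples only, at no more than 0.0841 FPKM. Of the non-family genes in the cluster, the non-coding AW112010 was called lower in the monocytic subset (-0.53, adjusted p = 0.00249, limma) and Gm8369, between Ms4a6c and Ms4a6b, was not called (-0.24, adjusted p = 0.355).

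A further 7 genes, relatives and reported partners of Ms4a proteins were examined. Tmem176a and Tmem176b, distant relatives with a similar membrane topology, were called higher in the monocytic subset (log2 fold changes 1.69 and 2.48) and lower in DKO Mo-MDSCs (-1.28 each, adjusted p = 0.0196 and 0.00491, limma), the only genes of the list called in the second comparison. Trem2, a lipid-sensing receptor of macrophages, was at 0.104 to 0.681 FPKM in PMN-MDSCs, 21.5 to 27.3 in WT and 11.4 to 20.2 in DKO Mo-MDSCs. It was called higher in WT Mo-MDSCs (5.72, adjusted p = 0.000138, limma) and not called in DKO (-0.58, adjusted p = 0.270). The partners called lower in the monocytic subset numbered 3: the adaptor Tyrobp (-1.24), the fungal receptor Clec7a (-1.79), which pairs with MS4A4A, and Tnfrsf18 (-0.77), the GITR receptor linked to Ms4a4b and Ms4a6b. Vsig4 was not called in either comparison. Thus 3 of 7 were called higher and 3 of 7 lower between subsets, against 18.5% and 20.6% of all genes. Between genotypes, 4 of 7 (Tmem176a, Tmem176b, Trem2 and Clec7a) were lower by the looser rule, against 4.43% of all genes tested. For 6 of 7, all but Vsig4, all 3 DKO samples lay below all 3 WT samples, against 12.9%. The median of the 7 was -0.53, beside the -0.55 of the 5 Ms4a genes.

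The genes of other lists were set beside the 5 Ms4a genes, by counts and medians only. Over all genes tested, 18.5% were called higher and 20.6% lower between the subsets. Between the genotypes, 4.43% of all genes tested were lower by the looser rule. Of 8 monocyte genes 7 were called higher in the monocytic subset, with a median of 2.42 beside the 2.63 of the Ms4a genes. In DKO against WT Mo-MDSCs the monocyte median was -0.32 and that of 5 non-classical monocyte genes -0.60, with none called, and Ccr2 (-0.86, adjusted p = 0.0626), Ly6c2 (-0.86), Klf4 (-0.68) and Cx3cr1 (-0.48) were past the looser rule. The other 4 monocyte genes were not, at -0.16 for Fcgr1, -0.10 for F13a1, 0.05 for Csf1r and 0.09 for Irf8. The non-classical genes were split, with Ace (-1.20), Nr4a1 (-0.66) and Spn (-0.60) past the rule and Treml4 (0.25) and Cd36 (0.21) above 0. The 10 neutrophil genes had a median of -1.34, with 9 below 0 and 6 past the looser rule. Mmp8 went the other way (0.79), all 3 DKO samples lying above all 3 WT samples, as for 912 of the 11451 genes tested. The summed level of the list, mostly S100a8 and S100a9, was 17916 to 61906 FPKM in WT and 7071 to 17144 in DKO Mo-MDSCs. The 8 macrophage genes had a median of 0.26, with Hmox1 alone called, and the 4 B-cell genes 0.23. The 5 Ms4a genes, Ms4a7 included, thus lay below 0 as the medians of the monocyte and neutrophil lists did. So did the median of 3 progenitor genes (-1.54), of which Elane and Prtn3 were past the looser rule. Flt3, of the dendritic list, was past it as well (-0.59). The part of these cells in the difference between genotypes was not tested. Among T-cell, dendritic, progenitor, erythroid and cycling genes, Cd3d and Cd4 were called lower and Flt3, Elane and Prtn3 higher in the monocytic subset and none was called between genotypes, and the NK-cell and mast-cell genes were too low to test. Of 10 interferon-stimulated genes none was called higher and 6 were called lower in WT Mo-MDSCs against PMN-MDSCs (median -0.60). The shares over all genes were 18.5% and 20.6%. None of the 10 was called in DKO against WT (median -0.04).

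**Figure D4:**
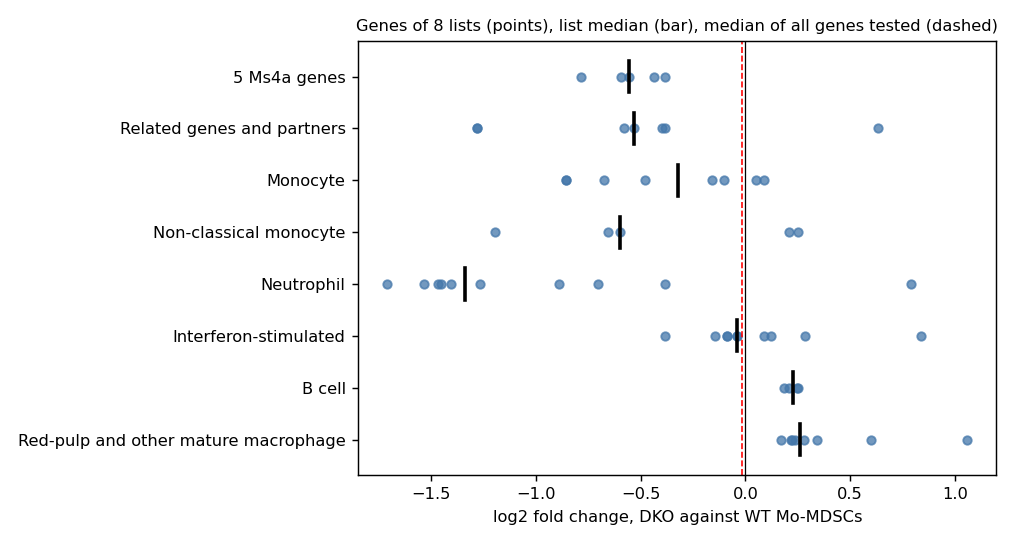
log2 fold changes of DKO against WT Mo-MDSCs for the tested genes of 8 lists (points), with the list's median (black bar) and the median of all genes tested (dashed, -0.02). The 5 Ms4a genes lie between -0.78 and -0.38, the B-cell and macrophage genes are all above 0, and the interferon-stimulated genes spread around 0.

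The genes most like each member were found by Pearson's correlation of log2(FPKM + 0.1) over the 9 samples, among 11725 other genes. The 9 points share 3 groups and the subset difference, so r describes that pattern. Ms4a4c and Ms4a6b had the same nearest gene, Ldlrad3 (r = 0.996 and 0.998), a membrane receptor with 1.11 to 1.98 FPKM in PMN-MDSC, 15.4 to 24.5 in WT Mo-MDSC and 11.03 to 14.2 in DKO Mo-MDSC samples. Klf4, a transcription factor of monocyte differentiation, was the second nearest of Ms4a6b (r = 0.997). Ms4a6c was nearest to Ppfia4 and Ehd4 (r = 0.997 and 0.996), and Ms4a6d to S100a10 and Dusp22 (r = 0.996 each). Ms4a4c, Ms4a6b, Ms4a6c and Ms4a6d were within the 55 nearest genes of one another (r from 0.984 to 0.995). Ms4a7 ran against them (r from -0.71 to -0.63) and was nearest to AA467197, Slco4c1 and 2410006H16Rik (r = 0.993, 0.991 and 0.991). AA467197 was at 42.4 to 109 FPKM in PMN-MDSCs, 7.04 to 20.9 in WT and 2.82 to 5.18 in DKO Mo-MDSCs, the same order of groups as Ms4a7 over a wider range.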

How the data were processed

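The authors prepared stranded mRNA libraries, sequenced 75-base single-end reads, mapped them to mm10 with TopHat2 2.0.13, Bowtie2 2.2.3 and SAMtools 0.1.19, and deposited FPKM values from Cuffnorm 2.2.1. How Cuffnorm scaled the libraries, the annotation and the strand setting are not given in the sources used here. Read totals are unknown, which limits precision to the standard errors. Groups were taken from the sample labels. Values were used as deposited, as log2(FPKM + 0.1), so fold changes of low genes are understated. For each comparison, genes reaching 1 FPKM in 3 or more of its 6 samples entered a limma 3.58.1 fit (lmFit, eBayes with trend; R 4.3.3), with Benjamini-Hochberg adjustment over all genes tested. The script was tested on simulated data.

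Members, gene lists and tests were chosen with earlier results of these data known. The genes named were the members, every other Ms4a symbol, 7 relatives and partners, 10 interferon-stimulated genes, the targeted genes, the cluster's neighbours, cell type markers, and the 3 genes most correlated with each member. Alternatives were 2 other pseudocounts (1 and 0.01 FPKM), 2 filters, 1 fit of all 9 samples, 2 scalings, the replicate number as a block, the later library series, and leaving out each sample. Between the WT subsets the replicate numbers, taken from the titles, paired the samples: the deviations from the group means correlated over genes with r = 0.294, 0.483 and 0.200 in the 3 pairs. No 2 libraries held identical values. Python 3.11.15 with pandas 2.3.3, scipy 1.17.1 and matplotlib 3.10.9 was used.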

Additional observations from a re-analysis of the deposited data

How the results depend on the processing

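Between the subsets, the calls of Ms4a4c, Ms4a6b, Ms4a6c and Ms4a6d held under every alternative run. The call of Ms4a7 was lost with quantile normalization (-0.35), scaling to summed FPKM (-0.020), replicates 2 and 3 only (-0.46) and 4 of the 6 single omissions (values from -0.57 to -0.34 over the 6), so that the number of members called lower was then 0 (0 to 1 over the omissions). Genes called higher numbered 5821 and lower 950 with scaling to summed FPKM, and 1279 were called higher with replicates 2 and 3 only (1378 to 1798 over the omissions). With the replicate number as a block, 3167 genes were called higher and 3417 lower. The main fit, which did not use the pairs, called 2121 and 2371.

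Between the genotypes no member was called under any alternative. The number past the looser rule was 2 with quantile normalization and 2 with scaling to summed FPKM. Genes called higher and lower numbered 9 and 4 without a filter on low values and 8 and 4 with replicates 2 and 3 only, and 27 were called lower in 1 fit of all 9 samples. Omitting single samples gave 6 to 16 higher and 1 to 9 lower. The replicate number as a block gave 6 genes lower against 10. The 3 pairs had r = 0.348, 0.226 and -0.070, against a mean of -0.084 for samples of different number. Pairing by number was thus not seen in every pair, although samples of the same number also shared a library series. The block changed no other call between genotypes. The value of Ms4a8a turned positive with quantile normalization (0.011), scaling to summed FPKM (0.11), replicates 2 and 3 only (0.11), and without WT replicate 1 or DKO replicate 1 (-0.13 to 0.057 over all single omissions). The causes of these changes were not tested. Only relative depth could be estimated, and genes of a few reads were given by their reads without a test.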
